A study of Mus musculus with 4 samples.

Results

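The genes described here encode the factors that start, run and regulate protein synthesis on the cytosolic ribosome: the initiation factors named Eif1 to Eif5 and the elongation factors Eef1 and Eef2. They were taken from the arrays by name, as every gene whose name in the files begins with Eif1 to Eif6 or with Eef1 or Eef2, without the eIF2 kinases. The rule gave 127 of 41174 probes and 55 of 27672 genes. Of these 55 genes, 17 have a newer symbol, and 4 are the Argonautes Ago1 to Ago4, small RNA binding proteins that the array lists under the old name Eif2c and that are not translation factors. They are described apart from the other 51 genes, and counts over all 37 tested genes include the 2 tested Argonautes. After a filter on dim probes, 47 probes and 37 genes remained, against 6931 genes over the whole array.

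RNA came from mouse oocytes held for 60 min at 37 °C under a hydrostatic pressure of 20 MPa and from control oocytes handled alike but not pressurised. A pool of 50 treated oocytes was set against a pool of 50 controls on each of 4 arrays, which the series' design text calls biological replicates. By the labels the treated pool was red (Cy5) and the control pool green (Cy3) on every array, so dye and treatment cannot be told apart. Because only 240 pg of RNA entered 2 rounds of amplification, the values also carry the spread of that step. Strain, age and meiotic stage of the oocytes are not given in the sources used here. Each value below is a log2 ratio of treated over control, in which 1 means a doubling in the treated pool and 0 means no difference.

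Translation begins when eIF2 brings the initiator transfer RNA to the small ribosomal subunit, held there with eIF1, eIF1A, eIF3 and eIF5. The cap complex, made of the cap-binding protein eIF4E, the scaffold eIF4G and the helicase eIF4A, recruits the messenger RNA, and the 4E-binding proteins block it by holding eIF4E. Oocytes build up a large store of messenger RNA during growth, and release of cap repression is among the means by which this store is translated during meiotic maturation, a time without transcription. Amounts of messenger RNA were measured here, and neither the proteins nor their phosphorylation.

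Replicate 1 stood apart from the other arrays. In net signal at the 99th percentile, treated over control came to 2.56 on replicate 1 and to between 0.25 and 0.40 on the rest. Its log2 ratios correlated with those of the other arrays at r = -0.19 to -0.15 over all probes, while replicates 2 to 4 correlated with each other at 0.086 to 0.29. Over the 37 genes, the values were -0.34 to -0.18 and 0.15 to 0.48. The signs on replicate 1 follow its label, whose dye orientation was not tested, and every mean over 4 arrays depends on it. Between 7049 and 11155 of 43379 spots stood well above background for the treated pools and between 8309 and 10837 for the controls. Of 14 oocyte marker genes on the array, 11 were above background in at least 1 treated pool and 13 in at least 1 control pool, with Nlrp5 above it in none. Of 15 cumulus and granulosa cell markers, 5 were above background in a treated pool and 9 in a control pool, with a median log2 ratio of -0.12 over the 6 tested. Amh, Foxl2, Fshr, Star, Fst and Kitl were never above background. Tnfaip6 was above it in 4 treated and 4 control pools, and Cyp19a1 and Ptgs2 each in 3 and 4. The other tested ones were Nr5a2, seen in 3 and 3, Inha in 2 and 4 and Hsd17b1 in 0 and 3. Of 6 blood and immune markers, 4 and 2 were above background in a treated and a control pool. The 2 tested, Hba-a1 and Srgn, were above it in 4 treated and 4 control pools each. Hba-a1 had a mean log2 ratio of 0.28. Srgn was below 0 on every array, with a mean of -0.52 (limma unadjusted p = 0.019, adjusted p = 0.93). Across treated pools the summed level of the cumulus list, on a log2 scale, ran from 9.95 to 11.86, and across control pools from 10.28 to 11.44. The part of these markers in the translation factor values was not tested.

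The first comparison asks whether any translation factor transcript differed between pressure-treated and control oocytes. None of the 37 genes passed the test at an adjusted p of 0.05 (limma, Benjamini-Hochberg adjustment over all genes), and their adjusted p ranged from 0.93 to 1. This was so for the whole array, on which 0 of 6931 genes, or 0%, were called. At an unadjusted limma p under 0.05, 1 of the 37, the cap repressor Eif4ebp1, was found, or 2.70%, against 4.16% of all tested genes. Its ratio was below 0, as for 3.42% of all genes at that threshold, while 0.736% were above 0. The mean over 4 arrays was above 0 for 17 of the 37 genes and below 0 for 20, and over all tested genes for 3293 and 3638. Without the Argonautes it was above 0 for 16 of 35 and below for 19. The median was -0.019 for the 37, also without the Argonautes, and -0.017 for all genes. Every standard error (SE) given here is limma's moderated one, which draws the spread of a gene toward that of all genes. It can thus differ from the SE of that gene's own values. With standard errors of 0.16 to 0.62 and a median of 0.30, the 95% interval included 0 for 36 of the 37 genes. For 19 genes the interval lay within 1 log2 unit of 0 on both sides, and for the others the arrays leave a 2-fold difference inside the interval. These intervals hold for this processing alone, so a narrow one does not exclude a 2-fold difference. Eif2s1, with an interval of -0.44 to 0.42, had a mean of -1.03 ± 0.86 (SE, n = 4) with the scanner's processed signals. Ago2, with an interval of -0.14 to 0.80, had 1.81 ± 0.90 (SE, n = 4) with those signals. In such pools a lower ratio can come from fewer contributing cells or from less of that RNA in each, which cannot be told apart.

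**Figure D1:**
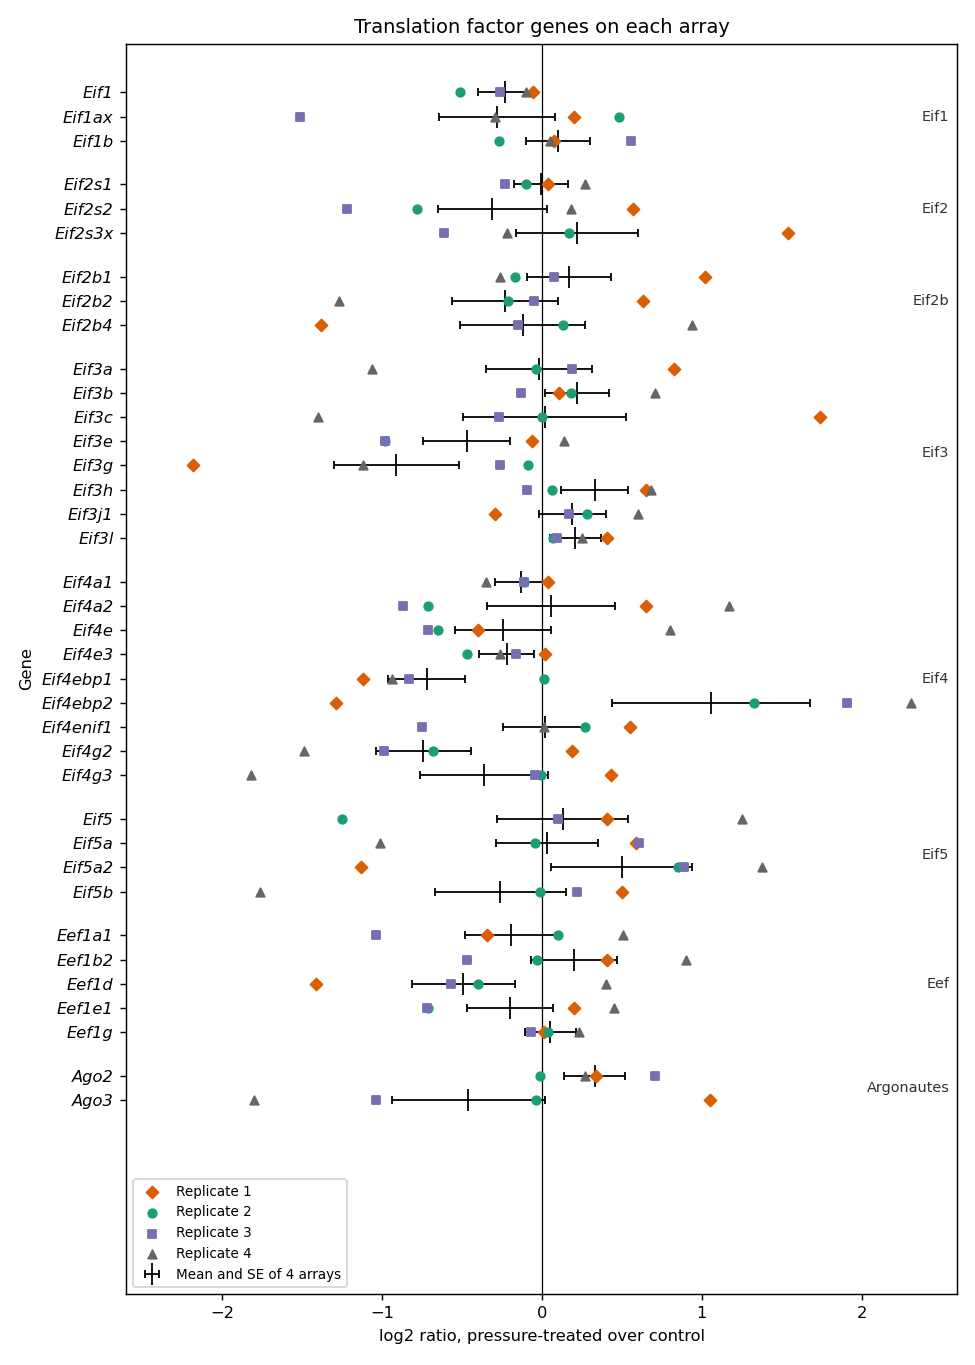
Log2 ratio of treated over control oocytes (horizontal axis) for the 37 tested translation factor and Argonaute genes (vertical axis, by group). Coloured symbols are the 4 arrays, and the black mark and bar are their mean and limma's moderated standard error. The symbols of most genes lie on both sides of 0, with Eif1, Eif3g and Eif3l the 3 genes on 1 side on every array.

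The probes that carry the genes of greatest interest are shown first, since on such an array a gene is its 60-base probe. They are the probe of Eif4ebp1, those of Eif4ebp2, Eif5a2 and Eif4g2, which passed an unadjusted limma p of 0.05 when replicate 1 was left out, and those of Eif3g, Eif1 and Eif3l, with 1 sign on all arrays. The end of each probe, bases 31 to 60 as the files give it, reads 5′ to 3′:
Eif4ebp1, chr8:26030987-26031046, plus strand: ggctgggttacctgggaaagccacactttt
Eif4ebp2, chr10:60950218-60950277, minus strand: gagatgcctcccatgttagtatctgataat
Eif5a2, chr3:28614232-28614291, plus strand: aacagataaatggcattgtctaatccattg
Eif4g2, chr7:106988089-106988148, minus strand: tttcacaatatttaaagcagttgcacgtca
Eif3g, chr9:20771207-20771266, minus strand: gtctggttttggctacgaccatcttatcct
Eif1, chr11:100430414-100430474, plus strand: tgagtagaatttccttctgtcccttgtcac
Eif3l, chr15:79177288-79177347, plus strand: ttttaaggcgctctcagtaaagggtctttg
Positions are those of the whole probe in mouse build mm7, as in the files. The exon or untranslated region each lies in was not assigned here. GC content of these 7 probes ran from 36.7% for Eif4g2 to 55.0% for Eif4ebp1 and Eif3g, against a median of 40.0% over all kept probes.

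Among the inhibitors of the cap complex, the 2 tested 4E-binding proteins had mean ratios of opposite sign. Eif4ebp1, a repressor that holds eIF4E until mTOR phosphorylates it, had log2 ratios of -1.12, 0.014, -0.83 and -0.94 on replicates 1 to 4. It was lower in the treated pool on 3 of 4 arrays and level on replicate 2. Its mean was -0.72 ± 0.24 (SE, n = 4; limma unadjusted p = 0.028, adjusted p = 0.93), with a 95% interval of -1.32 to -0.11. In the channels, the normalized log2 intensity of the control pools was 7.44, 6.56, 8.23 and 7.78 and that of the treated pools 6.33, 6.57, 7.40 and 6.85, so both ranges overlap across arrays. Leaving out 1 array at a time gave means of -0.96 to -0.58, and processed signals gave -1.33.

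Eif4ebp2, the second member of that family, had log2 ratios of -1.29, 1.33, 1.91 and 2.31. The treated pool was more than 2-fold brighter on replicates 2, 3 and 4 and more than 2-fold dimmer on replicate 1. Its mean of 1.06 ± 0.62 (SE, n = 4; limma unadjusted p = 0.14) was the only one of the 37 with at least a 2-fold mean difference, 2.70% against 2.08% of all tested genes. Without replicate 1 the mean was 1.85 ± 0.25 (SE, n = 3; limma unadjusted p = 0.0014, adjusted p = 0.17). Without replicate 4 it was 0.65, and under median centring of 4 arrays in place of loess 0.30. Control pools lay between 11.84 and 13.39 and treated pools between 12.10 and 14.40 in normalized log2 intensity. Eif4ebp3 was not above background on any array. Eif4enif1, which binds eIF4E and represses the messages it carries, had ratios of 0.55, 0.27, -0.75 and 0.011 and a mean of 0.018 ± 0.26 (SE, n = 4).

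**Figure D2:**
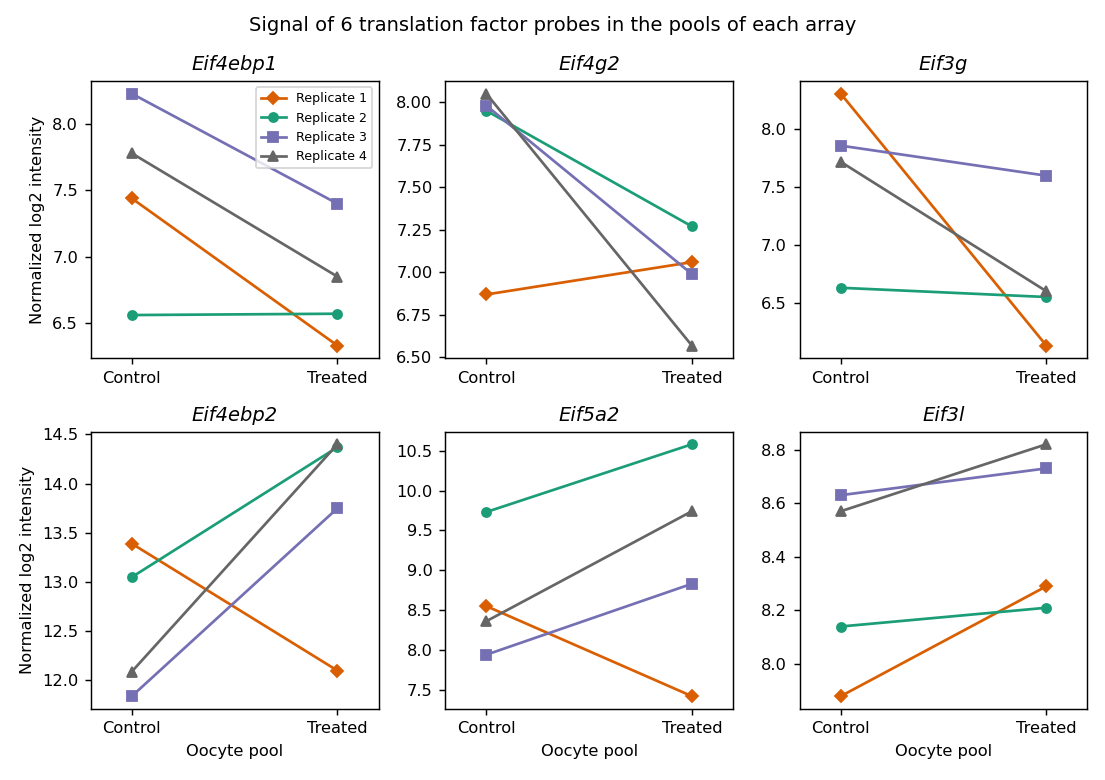
Normalized log2 intensity (vertical axis, with its own scale in each panel) of 6 probes in the control and treated pool of each array (horizontal axis), 1 line per array. For Eif4ebp2 and Eif5a2 the line of replicate 1 falls while those of replicates 2 to 4 climb, and for Eif4g2 the reverse is seen; for Eif3g and Eif3l all 4 lines run the same way.

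Of the cap complex itself, the tested genes were the cap-binding Eif4e and its homologue Eif4e3, the helicases Eif4a1 and Eif4a2, and the scaffolds Eif4g2 and Eif4g3. Eif4g2 encodes a scaffold that lacks the eIF4E binding site and serves initiation without the cap-binding protein. Its ratios were 0.19, -0.68, -0.99 and -1.49, below 0 on all arrays but replicate 1. The mean was -0.74 ± 0.30 (SE, n = 4; limma unadjusted p = 0.054), with a 95% interval of -1.50 to 0.019. Without replicate 1 it was -1.05 ± 0.23 (SE, n = 3; limma unadjusted p = 0.0082, adjusted p = 0.23), and without replicate 4 it was -0.49. Its control pools read 6.87, 7.95, 7.98 and 8.05 and its treated pools 7.06, 7.27, 6.99 and 6.57, and the probe was above background in 3 treated and 4 control pools. The scanner's processed signals gave a mean of -2.68.

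Eif4g3, a scaffold of the canonical kind, had ratios of 0.43, -0.0064, -0.041 and -1.82 and a mean of -0.36 ± 0.40 (SE, n = 4), carried by replicate 4, without which the mean was 0.13. Eif4e had ratios of -0.40, -0.65, -0.71 and 0.80, with a mean of -0.24 ± 0.30 (SE, n = 4). Replicate 4 ran against the rest. The mean was -0.58 without it (limma unadjusted p = 0.032), but -0.10 without replicate 2 and -0.081 without replicate 3. The homologue Eif4e3 read 0.018, -0.47, -0.16 and -0.26, with a mean of -0.22 ± 0.17 (SE, n = 4). The helicase Eif4a1 was close to level on every array, at 0.036, -0.11, -0.11 and -0.35. Eif4a2, its paralogue, split by array at 0.65, -0.71, -0.87 and 1.17. Together 3 of the 9 tested Eif4 genes had a mean above 0 and 6 below, and without replicate 1 the counts were 1 and 8, the one above being Eif4ebp2. Over all tested genes 2898 were above 0 and 4033 below without that array.

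The eIF2 complex delivers the initiator transfer RNA, and phosphorylation of its alpha subunit is the switch by which stressed cells lower initiation. The alpha subunit Eif2s1 had ratios of 0.037, -0.099, -0.23 and 0.27 and a mean of -0.0057 ± 0.17 (SE, n = 4). Its 95% interval was -0.44 to 0.42, and 2 treated pools against 4 control pools were above background for it. With the scanner's processed signals in place of normexp and loess the mean was -1.03 ± 0.86 (SE, n = 4). The beta subunit Eif2s2 had ratios of 0.57, -0.78, -1.22 and 0.18 with a mean of -0.31 ± 0.34 (SE, n = 4), which ran from -0.60 to -0.0088 as single arrays were left out and was -0.021 as the mean over its probes. The gamma subunit Eif2s3x had 1.54, 0.17, -0.61 and -0.22 with a mean of 0.22 ± 0.38 (SE, n = 4), and without replicate 1 that mean was -0.22. The 3 subunit genes of this heterotrimer were all above 0 on replicate 1 and all below 0 on replicate 3, and lay on both sides of 0 on replicates 2 and 4. This holds for the brightest probes, since on replicate 3 the second probes of Eif2s1 and Eif2s2 read 0.68 and 0.85. Of all tested genes, 50.0% were above 0 on replicate 1 and 46.5% on replicate 3, and of the 37 genes 70.3% and 29.7%.

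The factor eIF2B recharges eIF2 with GTP and is what phosphorylated eIF2 inhibits. Its subunit genes Eif2b1, Eif2b2 and Eif2b4 were tested, and Eif2b3 and Eif2b5 were not above background. Eif2b1 read 1.02, -0.17, 0.079 and -0.26, with a mean of 0.17 ± 0.26 (SE, n = 4). Eif2b2 read 0.63, -0.21, -0.046 and -1.27, with a mean of -0.23 ± 0.33 (SE, n = 4). Eif2b4, with -1.38, 0.13, -0.15 and 0.94, had the opposite sign to both on replicates 1, 2 and 4. Genes around eIF2 were also listed: its kinases, phosphatase subunits and partners, and Atf4 and Ddit3, which act downstream of it. Most were too dim. Of 11 symbols on the array, with Gcn1 under both its names, only Eif2ak3 and Nck1 could be tested. Eif2ak3, the endoplasmic reticulum kinase PERK, had a mean of -0.20 and the adaptor Nck1 one of 0.021.

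Of the factors that scan for the start codon, Eif1 guards its choice. Its ratios of -0.055, -0.51, -0.26 and -0.098 were below 0 on all 4 arrays, with a mean of -0.23 ± 0.17 (SE, n = 4) and a 95% interval of -0.66 to 0.20. Eif1 and Eif3g were the 2 of 37 genes below 0 on every array, 5.41% against a background of 9.39%. Eif1ax, the X-linked gene of eIF1A, which occupies the aminoacyl site during scanning, read 0.20, 0.48, -1.51 and -0.29, with a mean of -0.28 ± 0.36 (SE, n = 4). Without replicate 3 that mean was 0.13. Eif1b, a paralogue of Eif1, read 0.075, -0.27, 0.56 and 0.051. Autosomal Eif1a was not above background on any array.

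The scaffold eIF3 is the largest initiation factor and holds the small subunit, the ternary complex and the cap complex together. Of its 12 genes on the array 8 were tested, 5 with a mean above 0 and 3 below, with a median of 0.10. Eif3g, an RNA-binding subunit, had ratios of -2.18, -0.089, -0.26 and -1.12, large on replicates 1 and 4 and near 0 on the other two. Its mean was -0.91 ± 0.39 (SE, n = 4; limma unadjusted p = 0.061), with a 95% interval of -1.88 to 0.059. Without replicate 1 the mean was -0.49, and with processed signals -2.49. The probe was above background in 3 treated and 4 control pools. Eif3l was the only gene above 0 on every array, at 0.41, 0.072, 0.096 and 0.25, or 2.70% against a background of 2.94%. Its mean was 0.21 ± 0.16 (SE, n = 4). With median centring in place of loess its mean was -0.36, while the median of all genes moved from -0.017 to -0.34.

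None of the remaining eIF3 genes had an unadjusted limma p under 0.05. Eif3e read -0.062, -0.98, -0.98 and 0.14, with a mean of -0.47 ± 0.27 (SE, n = 4), low on replicates 2 and 3 alone. Eif3h read 0.65, 0.063, -0.093 and 0.68, with a mean of 0.33 ± 0.21 (SE, n = 4). Eif3b had a mean of 0.22 ± 0.20 (SE, n = 4) and Eif3a, the core scaffold with Eif3c, one of -0.019 ± 0.33 (SE, n = 4). For Eif3c the arrays spread from 1.74 on replicate 1 to -1.40 on replicate 4. Eif3j1 had a mean of 0.19 ± 0.21 (SE, n = 4), but mice carry a near-identical copy, Eif3j2, and its value is uncertain for that reason. Its 3 kept probes are placed on chromosome 18, while the name Eif3j1 came from matching to current gene names. Which copy they measure was not tested. Of the untested subunits, Eif3d and Eif3f were above background on no array, and Eif3i and Eif3k passed it in 1 treated pool each and in 2 and 0 control pools.

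In the last steps of initiation Eif5 triggers GTP hydrolysis on eIF2 and Eif5b joins the large subunit. Eif5 read 0.41, -1.25, 0.099 and 1.25, with a mean of 0.13 ± 0.41 (SE, n = 4). Eif5b read 0.50, -0.01, 0.22 and -1.76, with a mean of -0.26 ± 0.41 (SE, n = 4), and 0.24 without replicate 4. Despite its name eIF5A, a protein modified to carry hypusine, acts mainly in elongation and termination. Its main gene Eif5a read 0.59, -0.042, 0.61 and -1.01, with a mean of 0.034 ± 0.32 (SE, n = 4). The paralogue Eif5a2 read -1.13, 0.85, 0.89 and 1.38, low on replicate 1 and high on the 3 others. Its mean was 0.50 ± 0.44 (SE, n = 4), with a 95% interval of -0.61 to 1.60, and -0.13 under median centring. Without replicate 1 the mean was 1.04 ± 0.20 (SE, n = 3; limma unadjusted p = 0.0052, adjusted p = 0.20), and without replicate 4 it was 0.20.

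Elongation rests on eEF1A, which delivers charged transfer RNA, on its exchange complex and on eEF2, which moves the ribosome. The 5 tested Eef genes had median ratios of 0.013, -0.03, -0.57 and 0.45 on replicates 1 to 4, and all 5 were below 0 on replicate 3 and above 0 on replicate 4. Of all tested genes, 46.5% were above 0 on replicate 3 and 46.9% on replicate 4, and of the 37 genes 29.7% and 56.8%. Eef1a1, the main eEF1A gene in most tissues, read -0.34, 0.10, -1.04 and 0.51, with a mean of -0.19 ± 0.29 (SE, n = 4). Processed copies of this gene lie elsewhere in the genome, and the probe's match to them was not tested. The exchange subunit Eef1d read -1.41, -0.40, -0.57 and 0.40, with a mean of -0.49 ± 0.32 (SE, n = 4) that was -0.79 without replicate 4 (limma unadjusted p = 0.041) and -0.19 without replicate 1 (limma unadjusted p = 0.51). Its partner Eef1b2 read 0.41, -0.03, -0.47 and 0.90, with a mean of 0.20 ± 0.27 (SE, n = 4). Eef1g, the third member of that complex, stayed near 0, at 0.013, 0.038, -0.068 and 0.23. Eef1e1, which belongs to the aminoacyl-tRNA synthetase complex, read 0.20, -0.71, -0.72 and 0.45. Eef2 was above background in 1 treated and 1 control pool and Eef1a2 in none, so neither was tested.

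The Argonautes under their old initiation factor names bind small RNAs. Ago2, the member that cuts its targets, read 0.34, -0.0086, 0.71 and 0.27, with a mean of 0.33 ± 0.19 (SE, n = 4). Ago3 read 1.05, -0.038, -1.04 and -1.80, with a mean of -0.46 ± 0.48 (SE, n = 4), which was -0.96 without replicate 1 and -0.0091 without replicate 4. Both probes were above background in 3 treated and 2 control pools, and so were kept through the treated channel alone. Ago1 was above background on no array, and Ago4 in 1 treated and 2 control pools.

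Replicate 1 bore on many of these means, so the set was also described without it. Its ratio had the opposite sign to the mean of the other arrays for 22 of the 37 genes, or 59.5%, against 60.1% of all tested genes. Without it 12 of the 37 genes had a mean above 0 and 25, or 67.6%, below, against 58.2% below 0 over all tested genes. Leaving out the Argonautes too gave 11 above and 24 below. The median was -0.18 for the 37 genes and -0.072 over all genes. Again 0 of the 37 were called and 0% of all genes, with a lowest adjusted p of 0.17 (limma). At an unadjusted limma p under 0.05 there were 3, Eif4ebp2, Eif5a2 and Eif4g2, or 8.11%, against 11.0% of all genes. Among all genes 6.35% were above 0, as Eif4ebp2 and Eif5a2, and 4.63% below, as Eif4g2. On replicates 2 to 4 alike, 9 genes were below 0, or 24.3% against 21.9%, and 4 above, or 10.8% against 18.4%. The 9 were Eif1, Eif2b2, Eif3c, Eif3g, Eif4a1, Eif4e3, Eif4g2, Eif4g3 and Ago3, and the 4 were Eif3j1, Eif3l, Eif4ebp2 and Eif5a2.

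**Figure D3:**
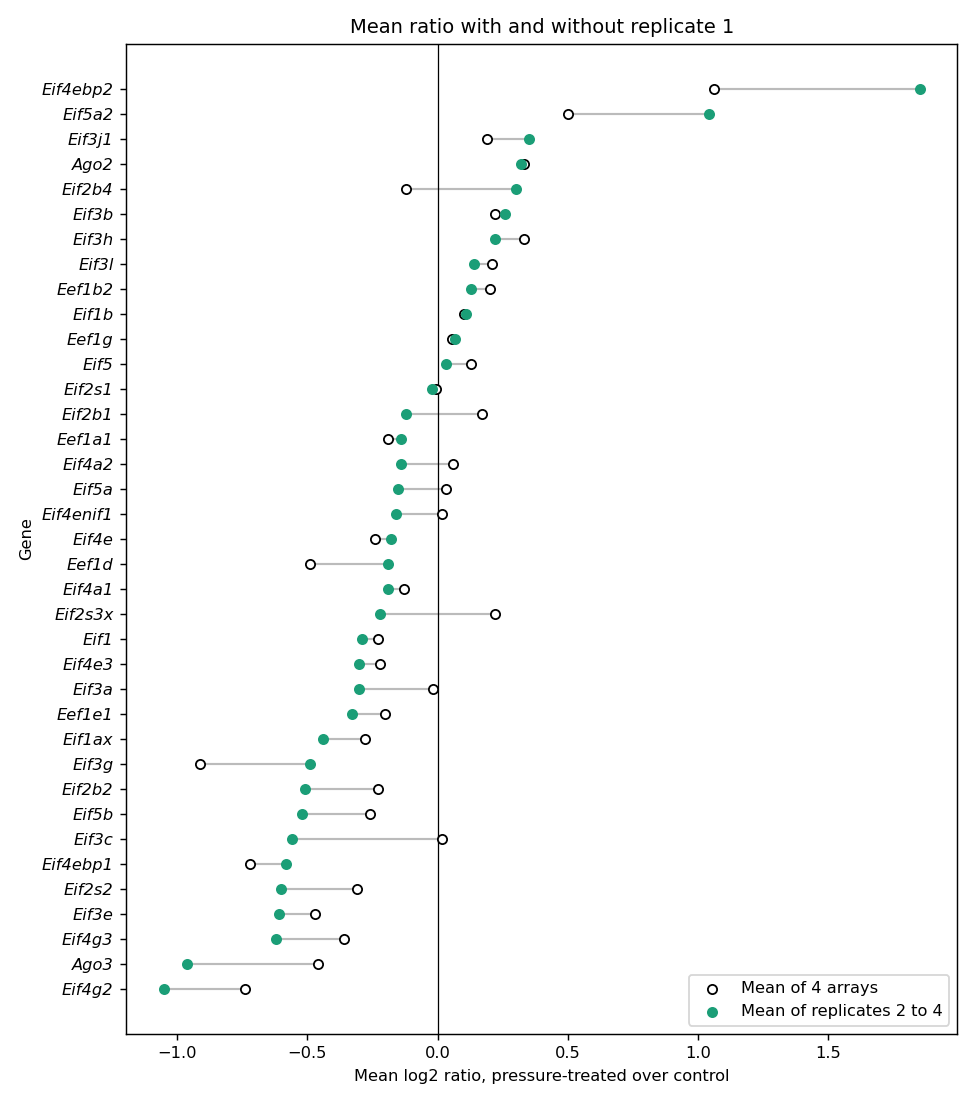
Mean log2 ratio of treated over control (horizontal axis) of each of the 37 genes (vertical axis, in order of the filled points) over 4 arrays (open points) and over replicates 2 to 4 (filled points). Leaving out replicate 1 moves Eif4ebp2 from 1.06 to 1.85 and Eif5a2 from 0.50 to 1.04, and it moves Eif4g2 from -0.74 to -1.05.

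The arrays also differed as wholes. Median ratios of the 37 genes were 0.20, -0.036, -0.16 and 0.14 on replicates 1 to 4, against medians between -0.044 and -4.7e-04 over all genes. Above 0 were 26, 13, 11 and 21 of the 37 genes, or 70.3%, 35.1%, 29.7% and 56.8%. Over all tested genes those shares were 50.0%, 44.2%, 46.5% and 46.9%. Ratios beyond 2-fold in either direction were found for 10, 2, 5 and 13 of the 37, or 27.0%, 5.41%, 13.5% and 35.1%. All tested genes gave 16.8%, 7.21%, 14.4% and 21.1%, so replicates 1 and 4 held most of the large values there too. For the 63 tested genes of cytosolic ribosomal proteins, the machinery these factors act on, the array medians were -0.47, -0.16, -0.37 and -0.38, with 10 means above 0 and 53 below. The difference between these lists was not tested.

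The depth of the measurement varied within the set. Well above background in both channels on all 4 arrays were 24 of the 37 genes. Among the rest were Eif3a, seen in 2 treated and 3 control pools, Eif4g3 and Eif5b, in 3 and 2, and Eef1g, in 3 and 3. Of the 18 untested genes, 11 were never above background: Eif1a, Eif2a, Eif2s3y, Eif2b3, Eif2b5, Eif3d, Eif3f, Eif4e2, Eif4ebp3, Eef1a2 and Ago1. The other 7 were Eif3i, Eif3k, Ago4, Eif4b in 1 treated and 2 control pools, Eif4g1 in 1 treated and 0 control pools, Eef2 and its kinase Eef2k in 1 and 0. A gene below background here is one that its probes did not detect, and says nothing on its absence from the oocyte.

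A gene's probes offer a second look at the same transcript. Of the 37 genes, 28 had 1 kept probe and 9 had several, and in 6 of the 9 the means of the probes differed in sign: Eif2s1, Eif2s2, Eif3c, Eif3j1, Eif4a1 and Eif4e3. The probe pairs of Eif4e, Eif4a1 and Eif5 are shown, since they belong to key factors and gave different array profiles. Bases 31 to 60 of each, 5′ to 3′, with the motif AATAAA in capitals, are:
Eif4e probe 1, chr3:138364817-138364876, plus strand: tatgtctgcctttgtatctctatgctgtac
Eif4e probe 2, chr3:138365301-138365360, plus strand: gggtttaagatgtttttacttaatggccag
Eif4a1 probe 1, chr11:69748672-69748731, minus strand: aaacaaggctggcctcatttgctggaccaa
Eif4a1 probe 2, chr11:69748517-69748576, minus strand: acacaaaattctgAATAAAattacttggaa
Eif5 probe 1, chr12:109056338-109056397, plus strand: ttacattgtcaatggatctcatgaggcgaa
Eif5 probe 2, chr12:109062056-109062115, plus strand: gtcctgactatatttgaaaacttgtcttca
Probe 1 is the brighter and is the one used above. The probes of Eif4e start 484 bases apart, those of Eif4a1 155 and those of Eif5 5718 bases apart on the genome.

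Probe 2 of Eif4e read 0.73, -1.94, 0.32 and 0.12, against -0.40, -0.65, -0.71 and 0.80 for probe 1. The means, -0.19 and -0.24, were alike while the arrays were not. Probe 2 of Eif4a1 read 0.16, 1.27, 0.39 and -0.40 with a mean of 0.36, against -0.13 for probe 1. Probe 2 of Eif5 read 1.22, 0.099, -0.44 and -0.54 with a mean of 0.084, where probe 1 had its highest value on replicate 4. For Eif3c the second probe, 17517 bases away, had a mean of -1.0 against 0.017, and for Eif3j1 the third probe had a mean of 1.0 against 0.19. Both probes of Eif5b were lowest on replicate 4, at -1.76 and -2.29, and had means of -0.26 and -0.70. So probes of 1 gene on the same 4 pools differed by as much as many of the gene values given above.

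**Figure D4:**
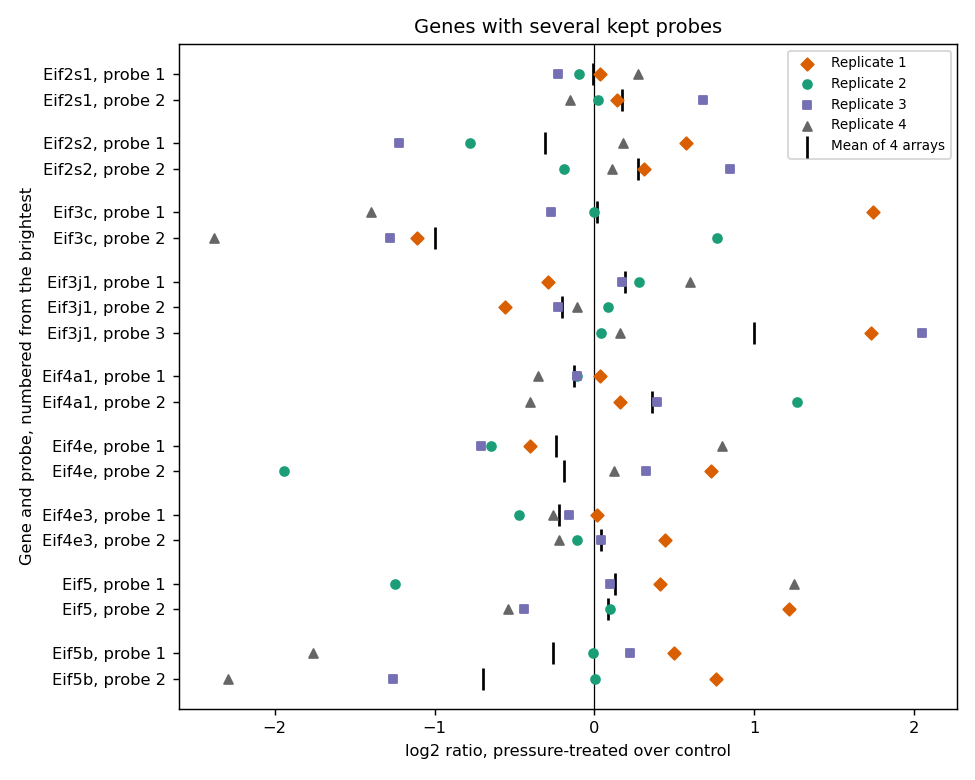
Log2 ratio of treated over control (horizontal axis) of each kept probe of the 9 genes with several (vertical axis, probe 1 the brightest), with 1 symbol per array and a bar at the mean of 4 arrays. The probes of Eif3c have means of 0.017 and -1.0, and those of Eif4e similar means from unlike arrays.

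Probe position along the gene was described as well. Of 23 of these genes with both kept and dim probes, the probe nearest the 3′ end was kept in 18, or 78.3%, against 71.0% of 3252 such genes on the array. The exceptions were Eef1d, Eif1ax, Eif3c, Eif4ebp1 and Eif5b, so the Eif4ebp1 value comes from a probe that does not lie at the 3′ end of its probes. The polyadenylation signal AATAAA, searched in the sequence as printed in the files and on that strand alone, was in 3 of the 47 kept probes of the 37 genes, or 6.38%, against 6.84% of all kept probes. Among the 80 dim probes of these genes it was in 3, or 3.75%, and among all probes in 4.78%.

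Other genes that feed into translation were read from lists of 72 symbols, of which 70 were on the array and 37 were tested. Gcn1 and Mtor were each listed under an old and a new symbol, so the genes are fewer than the symbols. Of the 37, 14 had a mean above 0 and 23 below, 0 were called, and 2 had an unadjusted limma p under 0.05, to be read against the 3293 above, 3638 below and 4.16% of all tested genes. Among mTOR and MAP kinase inputs to the cap complex, 10 of 17 symbols were tested, 3 above 0 and 7 below, with a median of -0.18. Of the termination and recycling factors 6 of 9 were tested, and Mcts1, which helps release transfer RNA from the recycled small subunit, had a mean of -0.57 ± 0.22 (SE, n = 4; limma unadjusted p = 0.043, adjusted p = 0.93). Of the genes of poly(A) binding and oocyte cap control, 16 were tested, 7 above 0 and 9 below. Paip2, an inhibitor of the poly(A)-binding protein, had a mean of -0.54 ± 0.20 (SE, n = 4; limma unadjusted p = 0.038, adjusted p = 0.93). Ybx2, an RNA-binding protein that packages stored messages in germ cells, read -1.44, 0.99, 1.93 and 1.60, low on replicate 1 and high on the others, and had a mean of 0.77 ± 0.59 (SE, n = 4). Cpeb1, which controls cytoplasmic polyadenylation in oocytes, read 0.29, 1.67, -0.23 and 1.51, with a mean of 0.81 ± 0.38 (SE, n = 4). The lowest means of this list were those of Cpeb2, -1.13 ± 0.61, and Tacc3, -0.83 ± 0.46 (SE, n = 4). Enzymes that modify eIF5A and eEF2 were tested for 2 of 7 genes, with a median of -0.024, and mitochondrial translation factors for 1 of 9, the ribosome recycling factor Mrrf at -0.62 ± 0.26 (SE, n = 4).

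Because names on the array are old, 6 translation factors lay outside the rule, and 4 of them were tested. Eif6, listed as Itgb4bp and known for keeping the subunits apart, read 0.083, -1.0, 0.12 and 0.66, with a mean of -0.033 ± 0.30 (SE, n = 4). Eif3m, listed as Ga17, read -0.47, -0.31, -2.22 and 1.49, and Eif4h, a helper of the eIF4A helicase listed as Wbscr1, read 1.01, 0.012, -1.47 and 0.27. Their means were -0.38 ± 0.58 and -0.046 ± 0.42 (SE, n = 4). Eif1ad, a relative of eIF1A, read 1.41, 0.20, 1.30 and 0.15, above 0 on every array, with a mean of 0.76 ± 0.30 (SE, n = 4; limma unadjusted p = 0.046, adjusted p = 0.93).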

How the data were processed

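Total RNA of 4 treated and 4 control pools was amplified, dye-labelled and hybridised to 4 two-colour arrays, per the labels' protocols. Per the submitters' processing notes, the deposited scanner files, with each spot's mean and median background intensity, come from Agilent Feature Extraction 9.5.1.1. Processed signals and a log10 ratio of red over green stand beside them, per the file headers. The authors' value table equals that log10 ratio to within 5e-10, with a median of 0 in each column.

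In limma 3.58.1 (R 4.3.3), the deposited intensity values were background-corrected with normexp (offset 50), then loess was run within each array, giving control spots weight 0. Control spots and outlier-flagged spots were left out, and no spot was saturated. Probes well above background on at least 3 arrays in the same channel were kept, 8124 of 41174, and each gene took its brightest kept probe. Of 6931 genes, 6879 had a value on every array. Log2 ratios were tested against 0 with lmFit and eBayes, two-sided, with Benjamini-Hochberg adjustment over all genes. The p-values measure the spread of the 4 treated-over-control ratios between arrays, amplification included, with each gene's spread drawn toward that of all genes.

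Names were updated through a RefSeq table of GRCm38.p6, used for names only. Accessions matched 5043 tested genes, symbols 816 and synonyms 379, and 693 kept the file's name. Per-array values are given for the members with the smallest p of each group, those of 1 sign on every array and a short list of central factors. They are also given for most other tested members. The members and all lists were chosen with earlier results of these data known. Alternatives covered background, normalization, the dim-probe filter, the probe summary, the authors' values, the test and omission of single arrays. A single slide and scan held every array, which leaves no batch of slide or scan to fit. Batches of pool collection or amplification were not modelled.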

Additional observations from a re-analysis of the deposited data

Results flagged for a closer look

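Replicate 1 stood apart in the balance of its channels: treated over control net signal, taken at the 99th percentile, was 2.56 there and 0.25 to 0.40 on replicates 2 to 4. The gap to the nearest other array was 0.94 of the whole range of the 4 values. Of 46 sets of 4 values examined in this way 1 stood out, and chance marks about 5% of such sets. On the same array the ratios of Eif4ebp2, Eif5a2 and Eif4g2 had the opposite sign to those of replicates 2 to 4. These genes were picked by their p without that array, so their sign on it is no separate evidence. Of all tested genes, 60.1% had the opposite sign on replicate 1 to the mean of the other arrays.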

How the results depend on the processing

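No translation factor gene and no other gene was called under any of the 14 alternatives run with limma, at lowest adjusted p of 0.17 to 1. Counts at an unadjusted p under 0.05 ran from 72 to 761 of all genes (715 of 27672 without the filter) and from 0 to 5 of the 37. Under median centring in place of loess the median of all genes moved from -0.017 to -0.34 and that of the 37 genes to -0.56. Leaving out 1 array gave medians of the 37 of -0.18 (without replicate 1) to -0.0088. Of the 37 genes, 14 kept their direction in every alternative run, Eif4ebp1 (-1.33 to -0.42 over these), Eif4ebp2 (0.30 to 1.85), Eif4g2 (-2.68 to -0.49), Eif3g (-2.49 to -0.43) and Ago2 (0.20 to 1.81) among them. Ago2 passed the filter through the treated channel alone, above background in 3 treated and 2 control pools, which favours a ratio above 0. The other 23 genes reversed in at least 1 alternative, with the cause not tested beyond the array left out. Some alternatives were no check on direction. A trend and robust eBayes, no dim-probe filter and a filter on both channels left the mean of each of these genes they tested unchanged. The mean over probes could alter only the 9 genes with several kept probes. Processed signals and the authors' values are in effect the same ratio, though each is counted among the alternatives, so their match is no second check. Both gave Eif4ebp1 -1.33, Eif4ebp2 0.80, Eif4g2 -2.68, Eif3g -2.49, Ago2 1.81 and Eif2s1 -1.03 with no change of direction. Reversed under both were Eif2b4 0.15, Eif3c -0.041, Eif4a1 0.029, Eif4a2 -0.19, Eif5a -0.099 and Eif5b 0.035. Without background subtraction Eif3a was 0.026, Eif3c -0.028, Eif4a2 -0.12 and Eif5a -0.024. Median centring gave Eif1b -0.54, Eif2s3x -0.075, Eif2b1 -0.12, Eif3b -0.17, Eif3c -0.44, Eif3j1 -0.30, Eif3l -0.36, Eif4a2 -0.44, Eif4enif1 -0.67, Eif5 -0.56, Eif5a -0.28, Eif5a2 -0.13, Eef1b2 -0.12 and Eef1g -0.027. Scaling between arrays gave Eif1ax 0.098, Eif1b -0.095, Eif4a2 -0.42 and Eif5 -0.70. The mean over probes gave Eif2s1 0.083, Eif3c -0.49 and Eif4a1 0.11. Array weights gave Eif2b1 -0.013, Eif2b4 0.02, Eif3c -0.095, Eif4a2 -0.42, Eif4enif1 -0.021, Eif5 -0.45 and Eef1b2 -0.0049. Leaving out each array in turn spanned 0 for Eif1ax (-0.54 to 0.13), Eif1b (-0.049 to 0.23), Eif2s1 (-0.096 to 0.067), Eif2s3x (-0.22 to 0.50), Eif2b1 (-0.12 to 0.31), Eif2b2 (-0.51 to 0.12), Eif2b4 (-0.47 to 0.30), Eif3a (-0.30 to 0.33), Eif3c (-0.56 to 0.49), Eif4a2 (-0.31 to 0.37), Eif4enif1 (-0.16 to 0.28), Eif4g3 (-0.62 to 0.13), Eif5 (-0.24 to 0.59), Eif5a (-0.16 to 0.38), Eif5b (-0.52 to 0.24), Eef1a1 (-0.43 to 0.093), Eef1b2 (-0.028 to 0.43) and Eef1g (-0.0055 to 0.095). The test was paired by array, since each ratio sets the treated against the control pool of 1 array, and no other pairing was fitted.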
